A study of Arabidopsis thaliana with 6 samples.

Results

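Nuclear tRNA fragments of 28 to 34 nt, the size of tRNA-halves, were taken from leaf small RNA libraries of Arabidopsis thaliana. A sequence was included when its length lay in this range, when it matched the sense strand of a nuclear tRNA gene without mismatch, and when it matched neither a miRNA or TAS (trans-acting siRNA) locus nor an organelle genome. This rule gave 211 of the 18124 listed sequences, and 22 more were left out for an organelle match and 2 for a miRNA or TAS match. By position in the gene, 182 were 5′ fragments, which started within 2 nt of the gene's first base. Another 3 were 3′ fragments, which ended within 2 nt of the last base, and 26 were internal. The members came from 299 of the 625 annotated nuclear tRNA genes, 24 of 50 isoacceptors (an amino acid with 1 anticodon) and 14 of 20 amino acids.

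The study compared wild-type plants (WT, 3 libraries) with the rdr1 mutant (3 libraries). RDR1 is a polymerase that uses RNA as its template and so turns single RNA strands into the double strands from which small interfering RNAs are cut. All plants had 16 h of daylight at 22 °C and no treatment, and RNA came from leaf samples by TRIzol extraction, per the labels' protocols. Libraries were made with HD adapters, which carry random bases at the ends that are ligated, and read as 50-nt single ends on an Illumina HiSeq instrument. The sources used here do not give the rdr1 allele, the age of the plants or whether each library came from separate plants, so a p-value measures the spread between these libraries, which may be technical. Small RNAs do not measure the RDR1 messenger RNA, so the genotype label was not checked. Sequences that match the chloroplast genome held 14.7 to 19.5% of the listed value. This share cannot tell leaf from other green tissue, so the leaf label was not checked further.

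A tRNA is cut into a 5′ and a 3′ part when an endonuclease opens its anticodon loop. In plants, enzymes of the RNase T2 family, which are otherwise secreted or vacuolar RNases, make such cuts, and in animals angiogenin does. Fragments of tRNA increase in many organisms under stress, and 5′ fragments of the Asp and Gly tRNAs are among those described in phosphate-starved Arabidopsis roots. Adapter ligation takes fragments with a 5′ phosphate and a 3′ hydroxyl, so cut ends that carry another chemical group are not recorded by such libraries.

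The sequences that carried most of the value are shown first. For the 4 most abundant isoacceptors and for Gln-TTG and Cys-GCA, the 5′ part of 1 gene is given 5′ to 3′ from its first base to the fourth base after the anticodon, with the anticodon in capitals. Coordinates are those of the whole gene in TAIR10.1.
Asp-GTC, AT1G03515, chr1:877648-877719, plus strand: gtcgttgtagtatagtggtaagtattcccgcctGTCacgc
Glu-TTC, AT1G09110, chr1:2939417-2939488, plus strand: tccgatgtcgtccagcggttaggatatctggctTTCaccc
Gly-TCC, AT1G08240, chr1:2588525-2588596, plus strand: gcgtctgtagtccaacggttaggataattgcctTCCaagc
Gly-GCC, AT1G06860, chr1:2107398-2107468, minus strand: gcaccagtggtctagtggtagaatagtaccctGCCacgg
Gln-TTG, AT1G21420, chr1:7499733-7499804, minus strand: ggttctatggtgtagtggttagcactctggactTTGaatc
Cys-GCA, AT1G63510, chr1:23559187-23559258, minus strand: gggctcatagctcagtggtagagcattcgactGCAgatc
The most abundant fragments of these tRNAs all begin at base 1 of the gene and stop before the capitals above. They are given with the base at the cut end in capitals, first the 3 most abundant of Asp-GTC and then the most abundant of the others.
Asp-GTC, 31 nt: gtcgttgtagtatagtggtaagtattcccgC
Asp-GTC, 29 nt: gtcgttgtagtatagtggtaagtattccC
Asp-GTC, 30 nt: gtcgttgtagtatagtggtaagtattcccG
Glu-TTC, 31 nt: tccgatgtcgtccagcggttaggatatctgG
Gly-TCC, 31 nt: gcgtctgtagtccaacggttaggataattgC
Gly-GCC, 30 nt: gcaccagtggtctagtggtagaatagtacC
Gln-TTG, 30 nt: ggttctatggtgtagtggttagcactctgG
Cys-GCA, 32 nt: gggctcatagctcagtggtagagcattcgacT
The 3 Asp-GTC fragments differ only at this end, by 1 base each, and each matched 23 genes. The Glu-TTC fragment matched 6 genes, the Gly-TCC fragment 12, the Gly-GCC fragment 16, the Gln-TTG fragment 6 and the Cys-GCA fragment 1. Over all 211 members the median number of matching genes was 6 and the largest 46, and 45 members matched 1 gene. Members that share genes or overlap in sequence are not independent of each other, and which copy a fragment came from cannot be told apart.

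The values are a normalised signal, scaled so that the total of each library is 8000000. The totals recovered from the value steps ran from 4668411 to 9955668, and 1 read was worth 0.804 to 1.71. The libraries differed in fragment length before any tRNA was considered: sequences of 28 to 34 nt held 35.3, 26.2 and 9.94% of the listed value in WT 1 to 3 and 4.87, 15.7 and 17.7% in rdr1 1 to 3. WT 3 and rdr1 1 stood apart with the lowest shares. Sense fragments of the 18S to 5.8S part of the ribosomal RNA unit, which are no tRNA, moved the same way at this length, with sums of 169490, 135706 and 50999 in WT and 31575, 86087 and 76899 in rdr1. What part these length differences have in the results was not tested, and results below are therefore also given relative to the other sequences of the same length and without these libraries.

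The 211 members summed to 124344, 152589 and 39153 in WT 1 to 3 and to 15266, 45960 and 59721 in rdr1 1 to 3. WT 1 and WT 2 were above all rdr1 libraries, WT 3 was below rdr1 2 and rdr1 3, and rdr1 1 was lowest, so the groups overlapped. The means were 105362 ± 59052 for WT and 40316 ± 22759 for rdr1 (SD, 3 libraries a genotype), a log2 ratio of -1.39. Without WT 3 the ratio was -1.78, and without rdr1 1 it was -0.996. In these bulk samples fewer cells of a type and less RNA per cell cannot be told apart.

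**Figure D1:**
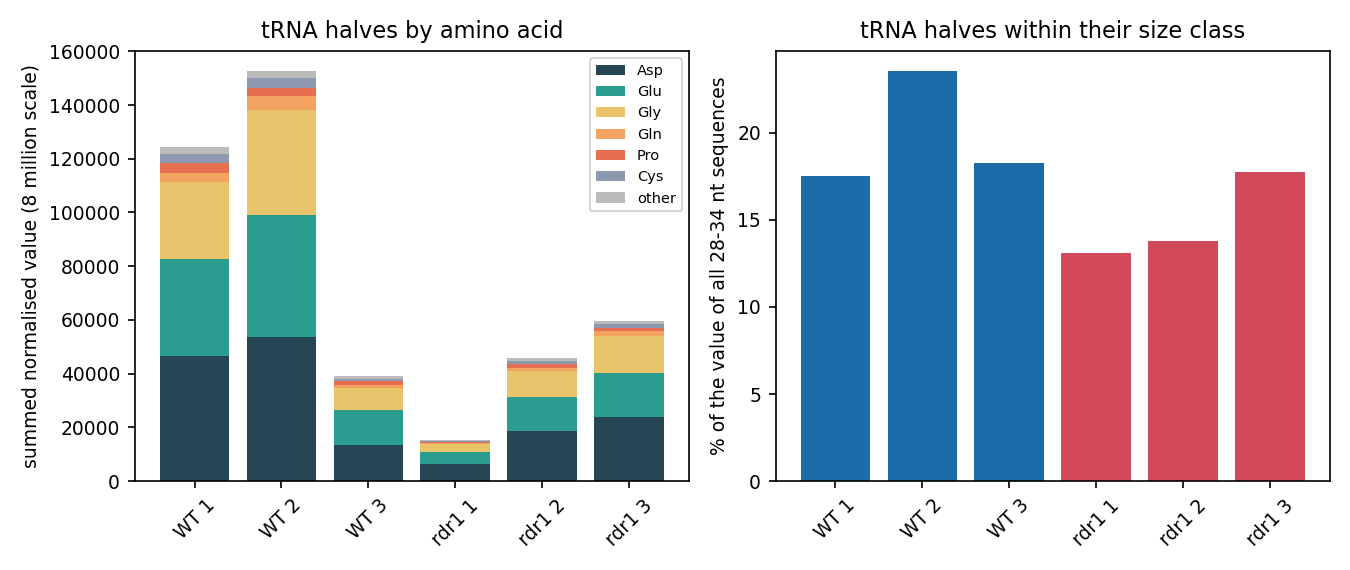
Left, the summed normalised value of the 211 members in each library, stacked by amino acid. Right, the same sum as a percentage of the value of all sequences of 28 to 34 nt. Left, WT 1 and WT 2 reach 124344 and 152589 and the others are at 59721 or below. Right, the 6 libraries lie between 13.1 and 23.5%.

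Within their own length class the members were less variable. They held 17.5, 23.5 and 18.3% of the value of all 28 to 34 nt sequences in WT and 13.1, 13.8 and 17.8% in rdr1. The WT mean was 19.8% ± 3.28 and the rdr1 mean 14.9% ± 2.53 (SD, 3 libraries a genotype). WT 1 lay just below rdr1 3, so the groups overlapped, although the other WT libraries were above all of rdr1. Without WT 2, the highest library, the difference fell from 4.91 to 3.03 percentage points in favour of WT.

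Within the length limit of the rule, the 5′ fragments held nearly all of the value. Their share was 96.4, 97.6 and 95.7% in WT and 95.3, 96.0 and 95.1% in rdr1, with a mean over the 6 libraries of 96.0% ± 0.908. Most began at the first base of the gene: 143 sequences did so and held 90.0 to 93.8% of the value in each library. At base 2 began 25 sequences with a mean sum of 2006, and at base 3, just inside the limit, 14 sequences with a mean sum of 1234. Just outside it, at base 4, began 7 sequences with a mean sum of 2025, which the rule counts as internal.

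The length profile peaked at 31 nt, which held 37.2% ± 3.51 of the value (SD over the 6 libraries). Fragments of 30 nt held 21.2%, of 29 nt 18.6%, of 28 nt 10.3% and of 32 nt 10.2%, while 33 nt held 2.30% and 34 nt 0.209%. At the lower limit, nuclear tRNA sequences of 27 nt had a mean sum of 4585, against 6406 at 28 nt and 7171 at 26 nt. Shorter nuclear tRNA sequences of 17 to 27 nt numbered 324 and had a peak of their own at 19 nt and a smaller one at 26 nt. Their sum was 42086, 73018 and 91556 in WT and 100247, 57130 and 61107 in rdr1, with a mean of 68887 ± 24993 and 72828 ± 23829. The long members thus made up 74.7, 67.6 and 29.95% of the nuclear tRNA value in WT and 13.2, 44.6 and 49.4% in rdr1, a range within each genotype that covers much of the other.

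**Figure D2:**
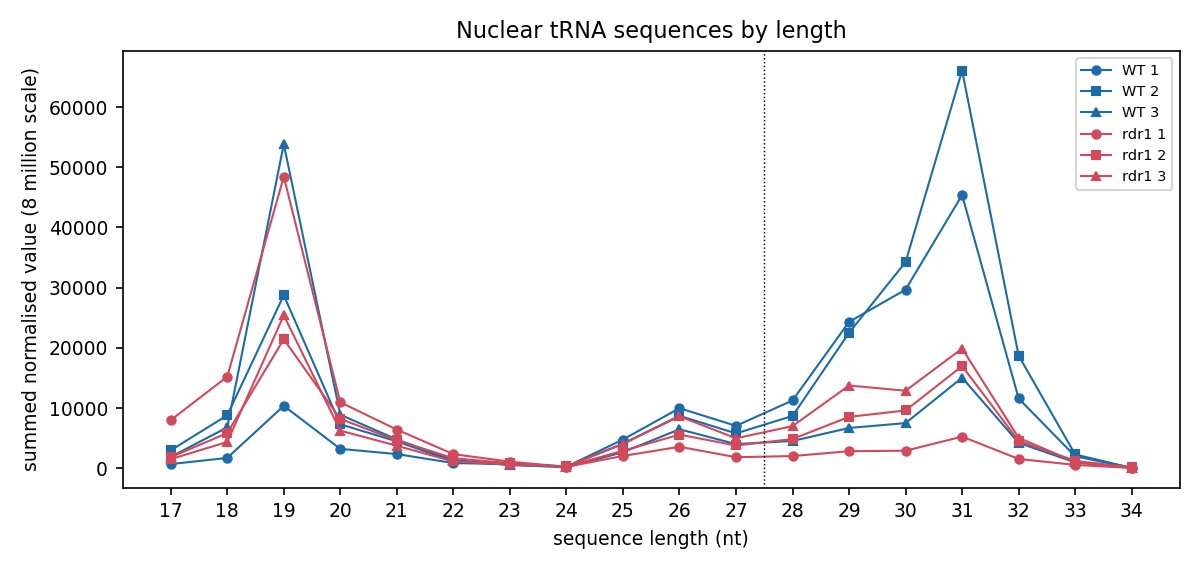
Summed normalised value of all nuclear tRNA sequences at each length from 17 to 34 nt, 1 line per library; the dotted line marks the lower limit of the long fragments. Every library has a peak at 19 nt, another at 31 nt and a smaller one at 26 nt. WT 3 and rdr1 1 are highest at 19 nt, with 53834 and 48429, and WT 1 and WT 2 at 31 nt, with 45392 and 66042.

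The 5′ fragments ended at or shortly before the anticodon. Of the 182, 180 ended before the first anticodon base, and these held 99.57 to 99.96% of the 5′ value in each library. The most used end left 2 bases before the anticodon, with 47.5, 52.2 and 47.0% of the 5′ value in WT and 42.2, 45.5 and 43.8% in rdr1. All WT libraries were above all rdr1 libraries at this position, with means of 48.9% ± 2.86 and 43.9% ± 1.65, a difference that was not tested. Ends that left 3, 4, 1, 5 and 0 bases held 18.1, 16.2, 11.2, 4.37 and 3.53% (means over the 6 libraries), and the groups overlapped at each of these 5 positions. The rule set the start and the length of these fragments, so an end near the anticodon was largely fixed by it, and these shares describe the ends within that window. In a tRNA, the anticodon loop has a pair of bases before the anticodon, so an end that leaves 2 bases is at the border of stem and loop, and ends that leave 3 or more are in the stem.

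The ends used most differed between tRNAs. Glu-TTC ended 2 bases before the anticodon in 64.4 to 75.4% of its 5′ value across the libraries, and Gly-TCC and Gly-GCC did so in 55.0 to 61.3% and 52.4 to 69.0%. Asp-GTC was spread over ends that left 2, 3 and 4 bases, with 24.8 to 34.5, 22.5 to 26.4 and 26.3 to 37.7%, and its leading end left 4 bases in WT 1 and rdr1 3 and 2 bases in the other libraries. The preferred end of Gln-TTG was 1 base earlier, with 3 bases left in 79.5 to 86.2%, and that of Pro-AGG/TGG (sequences shared by both anticodons) was the same in 51.8 to 67.2%. Cys-GCA had separate ends, right at the anticodon in 29.1 to 48.0% and 2 bases before it in 33.1 to 45.8%. The first of these led in WT 2 and the second in the other 5 libraries. The share right at the anticodon was 37.9, 48.0 and 31.5% in WT and 30.5, 29.1 and 31.1% in rdr1, higher in all WT libraries, a difference that was not tested. Over the 12 classes with the highest mean most ends overlapped, and the others that did not are listed here. With 3 libraries against 3 the exact permutation p of such a split is not below 0.1, and ends of 1 class are not independent of each other. Glu-TTC with 4 and 5 bases left, Gly-TCC, Gln-TTG and Gln-CTG with 4, and Gly-GCC with 3 were higher in all rdr1 libraries. Gly-GCC right at the anticodon, 1 sequence with 0 to 0.444% of its class, was higher in all WT libraries. These differences were not tested. In gene sequence, the most used junctions were G before C with 31.2% of the 5′ value, C before C with 28.2%, C before G with 12.5% and C before T with 11.8%.

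**Figure D3:**
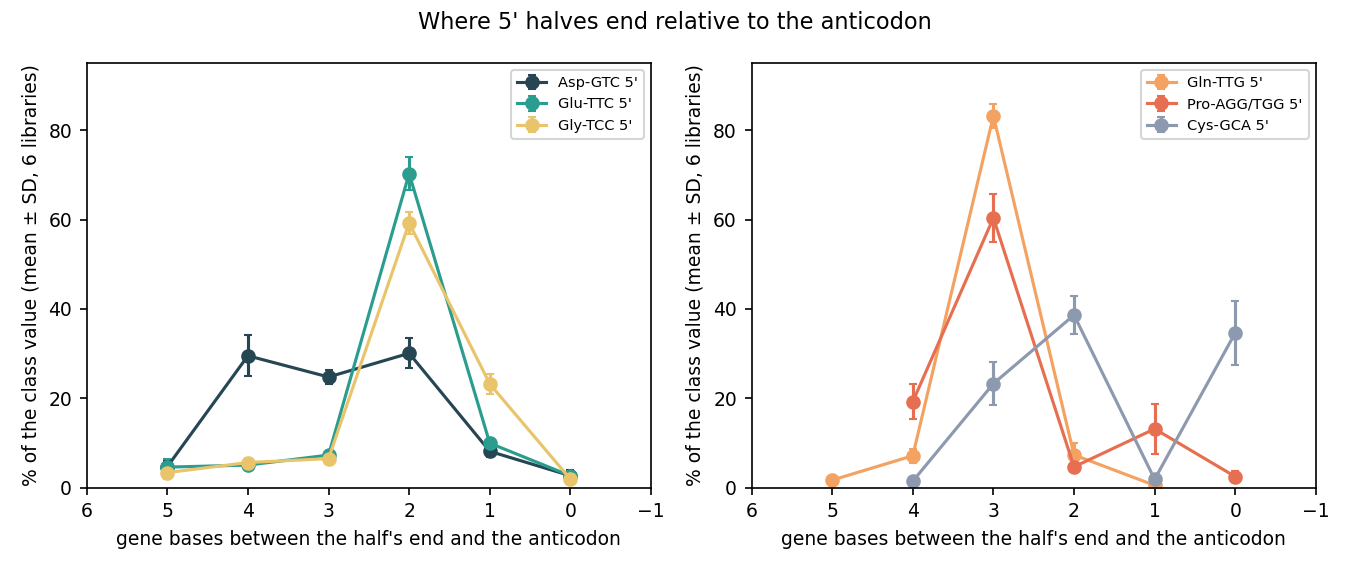
Share of the value of 6 classes of 5′ fragments by the number of gene bases between the fragment's end and the anticodon (mean ± SD over the 6 libraries). Glu-TTC and Gly-TCC peak at 2 bases with 70.3 and 59.2%, Gln-TTG and Pro-AGG/TGG at 3 bases with 83.2 and 60.4%, and Asp-GTC and Cys-GCA have no single peak.

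The tRNAs of Asp, Glu and Gly held most of the value. Asp had 37.3, 35.2 and 34.5% of the members' value in WT and 42.3, 40.3 and 40.2% in rdr1. Glu had 29.1, 29.9 and 32.7% in WT and 27.5, 27.7 and 27.3% in rdr1. The Asp share was higher in all rdr1 libraries than in all WT libraries and the Glu share lower, and the shares of the other 12 amino acids overlapped between the genotypes. Shares of 1 total are not independent of each other, and these differences were not tested, since 3 libraries against 3 cannot give an exact permutation p below 0.1. Gly followed with 23.0, 25.5 and 21.6% in WT and 20.1, 20.9 and 23.0% in rdr1.

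Abundance did not follow gene number closely. Glu-TTC had 11 annotated genes and a mean value of 20424 over the 6 libraries, which is 1857 per gene, and Asp-GTC had 26 genes and 27104, which is 1042 per gene. Tyr-GTA, the isoacceptor with the most genes of the 24 that had a member, had 76 genes and a mean value of 83.7. Over the 50 annotated isoacceptors the Spearman correlation of value with gene number was 0.417, a description over points that share the same libraries. No member came from a tRNA of Arg, Asn, Ile, Phe, Trp or Val. The table lists sequences that reached at least 20.07 in a library, so rarer fragments of these tRNAs were not analysed here.

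Copies of a tRNA that differ in sequence were present at different levels. For the 31 nt Glu-TTC fragment, 4 versions were listed, shown with the bases that differ from the most abundant version in capitals and positions counted from 1 at the 5′ end.
Version 1, AT1G09110 and 5 more genes, chr1:2939417-2939447, plus strand: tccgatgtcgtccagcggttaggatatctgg
Version 2, A5T and G7A, AT1G75970, chr1:28520026-28520056, minus strand: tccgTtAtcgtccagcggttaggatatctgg
Version 3, A5T, AT3G05525, chr3:1601379-1601409, minus strand: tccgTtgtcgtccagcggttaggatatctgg
Version 4, G4A and A5T, AT3G50665, chr3:18826040-18826070, plus strand: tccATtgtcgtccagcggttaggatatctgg
Version 1 held 72.2 to 76.1% of the 4 in each library, version 2 12.2 to 14.7%, version 3 5.71 to 7.48% and version 4 5.51 to 6.63%. Version 2 matched 2 genes and versions 3 and 4 matched 1 each. Per matching gene the mean values were 1498, 834, 776 and 726, closer together than the totals.

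The 30 nt Gly-GCC fragment had a second version, from AT1G71700 at chr1:26973389-26973418 on the plus strand and 2 more genes, with T19C, G21T and A22G.
Second version of Gly-GCC: gcaccagtggtctagtggCaTGatagtacc
It held 3.16 to 5.804% of both versions, and 42.9 per gene against 185 per gene for the 16 genes of the main version. Both families were thus led by their version with the most gene copies.

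The rdr1 and WT libraries were first compared sequence by sequence with limma over all 18043 sequences with a mean of at least 5, which included all 211 members. Of these sequences 0.216% (39) passed the threshold of an adjusted p of 0.05 (Benjamini-Hochberg), and 0 of the 211 members did. At an unadjusted p under 0.05 limma had 64 members, against 442 or 2.45% of all sequences tested. On the recovered reads edgeR and DESeq2 also called 0 members, and had 60 and 75 at an unadjusted p under 0.05, against 605 (3.35%) and 862 (4.78%) of all sequences. With array weights in limma, which weigh the libraries unequally, 31 members passed, 29 of them lower in rdr1, as did 1225 (6.79%) of all sequences. The fold change of rdr1 over WT was below 0 for 208 of 211, with a median of -1.27 on the log2(value + 1) scale, here called the log2 change, against 0.47 over all sequences tested. Without rdr1 1 the members' median was -0.72, against 0.069 over all sequences. With array weights it was -0.65, with 189 below 0, against 0.065 over all sequences. Other sequences of 28 to 34 nt were also mostly lower in rdr1, 97.6% of 3505, with a median of -0.87. The libraries of the genotypes did not overlap, with rdr1 lower, for 18 members (8.53% of them) against 2.31% of all sequences tested, and with rdr1 higher for 0 against 2.98%. This share was not computed for the other 28 to 34 nt sequences alone. Members that reached the 20.07 needed for listing in WT libraries only were not counted apart, and that limit favours a lower value in rdr1 for them.

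The 31 nt Asp-GTC fragment, the most abundant of its class, had values of 12177, 17742 and 3892 in WT and 1890, 5590 and 5562 in rdr1. WT 3 was below rdr1 2 and rdr1 3, so the groups overlapped. Its log2 change was -1.28 (SE 0.73, limma adjusted p = 0.753), which became -1.92 without WT 3 and -0.76 without rdr1 1. The 31 nt Glu-TTC fragment, the member with the highest mean, had 15353, 21064 and 5028 in WT and 1454, 5036 and 6004 in rdr1, with a log2 change of -1.74 (SE 0.74, limma adjusted p = 0.753). Here WT 3 lay within the rdr1 range. The 31 nt Gly-TCC fragment overlapped in the same way, with 10196, 15485 and 3414 in WT, 1099, 3499 and 5076 in rdr1, and -1.60 (SE 0.71, limma adjusted p = 0.753).

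The member with the smallest p was a Gln-TTG fragment 1 base longer than the one shown above.
Gln-TTG, 31 nt, cut end 2 bases before the anticodon: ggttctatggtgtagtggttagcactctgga
It had 167, 239 and 66.7 in WT and 10.0, 61.7 and 32.7 in rdr1, so that every WT library was above every rdr1 library. Its log2 change was -2.29 (SE 0.71, limma adjusted p = 0.332). The second version of Gly-GCC came next, with 287, 279 and 59.5 in WT and 15.1, 48.0 and 84.8 in rdr1 and a log2 change of -2.06 (SE 0.68, limma adjusted p = 0.556). It overlapped, since rdr1 3 was above WT 3. Versions 2, 3 and 4 of Glu-TTC made up the 5 smallest, with log2 changes of -1.77, -1.74 and -1.73 and limma adjusted p values of 0.753, 0.751 and 0.751. Version 1, with 6 genes, had the value of -1.74 given above, so the 4 versions moved by similar amounts in this comparison.

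Sums by anticodon and end have less counting error, and were fitted with all other genes and intergenic places as 1848 features. Of these 2.38% (44) passed, and 0 of the 32 tRNA classes did, in limma as in edgeR and DESeq2. At an unadjusted p under 0.05 there were 15 classes in limma and 17 in each of the others, against 130 (7.03%), 180 (9.74%) and 145 (7.85%) of all features in limma, edgeR and DESeq2. All 32 had a fold change below 0, with a median of -1.34 on the log2 scale, against -0.22 over all features. Without WT 3 the fit called 11 classes, all lower in rdr1, and 72 of all 1836 features (3.92%), 53 lower and 19 higher. The median of the classes was -1.83 without WT 3 and -0.72 without rdr1 1.

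The Asp-GTC 5′ class, with 13 sequences, had sums of 44983, 52496 and 12949 in WT and 6219, 17868 and 23051 in rdr1. Its log2 change of -1.19 (SE 0.60, limma adjusted p = 0.688) was -1.83 without WT 3, where it passed the threshold, and -0.62 without rdr1 1. The Glu-TTC 5′ class, with 39 sequences, had 32598, 42472 and 11319 in WT and 3463, 11089 and 14044 in rdr1. Only rdr1 3 was above the lowest WT library, and the log2 change was -1.62 (SE 0.59, limma adjusted p = 0.428), -2.19 without WT 3 (past the threshold) and -1.004 without rdr1 1. The Gly-TCC 5′ class had 17711, 26462 and 6138 in WT and 2165, 6260 and 8956 in rdr1, with a log2 change of -1.52 (SE 0.61, limma adjusted p = 0.515). The Gly-GCC 5′ class had 9512, 11126 and 1991 in WT and 778, 2913 and 4184 in rdr1, with -1.49 (SE 0.70, limma adjusted p = 0.688). Without WT 3 both Gly classes passed, at -2.13 and -2.28, and without rdr1 1 they were at -0.93 and -0.77.

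**Figure D4:**
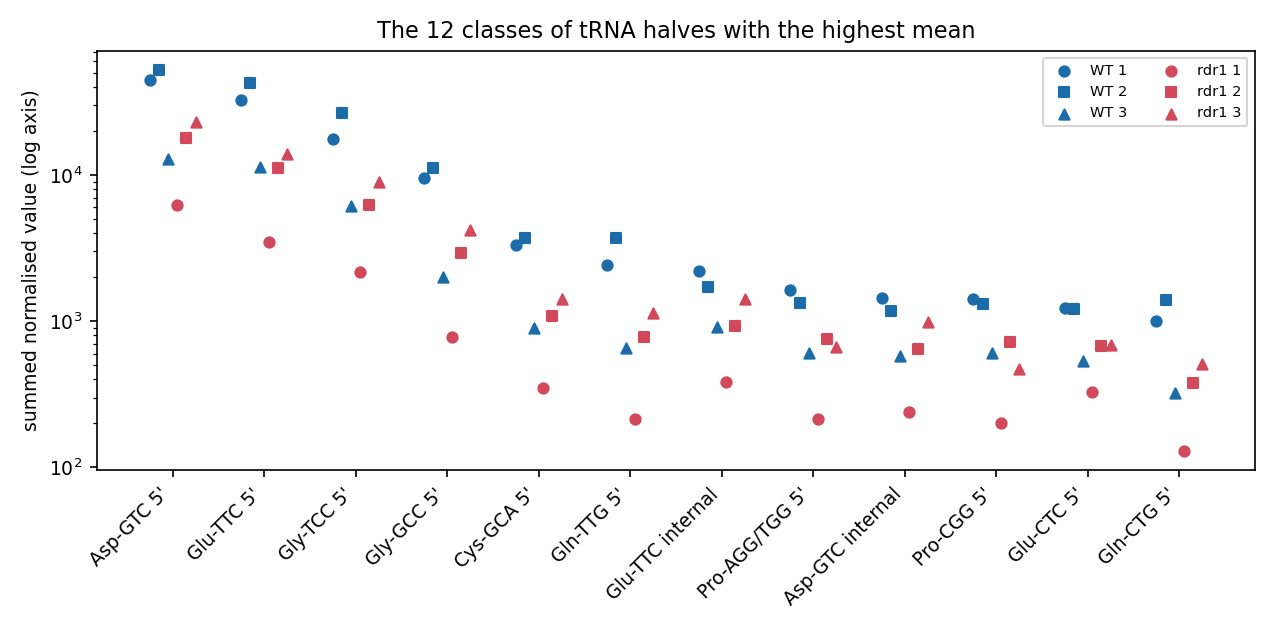
Summed normalised value (log axis) of the 12 classes with the highest mean, 1 point per library, WT in blue and rdr1 in red. In each class rdr1 1 is the lowest point and WT 1 or WT 2 the highest, and WT 3 lies among the rdr1 libraries.

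In the next 8 classes rdr1 1 was again lowest and WT 1 or WT 2 highest. Cys-GCA 5′ summed to 3308, 3723 and 894 in WT and 350, 1085 and 1418 in rdr1, and Gln-TTG 5′ to 2426, 3723 and 652 in WT and 216, 778 and 1129 in rdr1. Their log2 changes were -1.45 and -1.65 (limma adjusted p = 0.594 and 0.570), and both overlapped because of WT 3. The remaining classes of the 12, Glu-TTC internal, Pro-AGG/TGG 5′, Asp-GTC internal, Pro-CGG 5′, Glu-CTC 5′ and Gln-CTG 5′, had log2 changes from -1.39 to -0.79. The internal classes and Glu-CTC were nearest to 0, at -0.92, -0.89 and -0.79.

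Among the 32 classes, 3 did not overlap between the genotypes, all lower in rdr1, or 9.38% of them, against 6.17% of all features, and 0 were higher without overlap, against 2.81%. Ser-AGA 5′ was the most abundant of these, with 863, 537 and 441 in WT and 119, 332 and 315 in rdr1 and a log2 change of -1.34 (SE 0.50, limma adjusted p = 0.442). Met-i-CAT 5′, from the initiator tRNA, had 11.6, 30.3 and 11.2 in WT and 7.53, 5.14 and 1.21 in rdr1, with -1.79 (SE 0.66, limma adjusted p = 0.428). Ser-TGA 3′ had 24.7, 29.4 and 14.5 in WT and 1.25, 8.57 and 9.69 in rdr1, with -1.90 (SE 0.67, limma adjusted p = 0.385), the smallest p of the classes. Met-i-CAT and Ser-TGA rest on 1 sequence each, with 66 and 82 reads over the 6 libraries. Both reached the 20.07 needed for listing in WT libraries only. A lower value in rdr1 was thus favoured by that limit, and no conclusion is drawn from their lack of overlap. Pro-AGG/CGG/TGG 5′, also among the 5 smallest, was at -1.47 (SE 0.58, limma adjusted p = 0.490).

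Scaling each library to its other 28 to 34 nt sequences took away most of the difference between libraries of different fragment length. On that scale 176 of 211 members were lower in rdr1, at a median of -0.42 (log2), and so were 53.1% of the other sequences of 28 to 34 nt, at a median of -0.028. The members lay below the others of the same length at each length from 28 to 34 nt. The distance was smallest at 28 nt, with medians of -0.00054 and 0.17, and at 32 nt the medians were -0.85 and -0.0083. At 31 nt, where the tRNA value peaked, they were -0.65 and -0.24. In this scaling 36 members did not overlap with rdr1 lower (17.1%), against 1.81% of all sequences tested, and 0 with rdr1 higher, against 4.71%. The scaling moved the median of all sequences to 1.29, which makes a lower value in rdr1 rarer among them. The share without overlap among the other 28 to 34 nt sequences alone was not computed. Members listed only through their WT values, for which the listing limit favours a lower value in rdr1, were not counted apart here either. On this scale 0 members and 0 of all sequences passed the limma threshold.

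**Figure D5:**
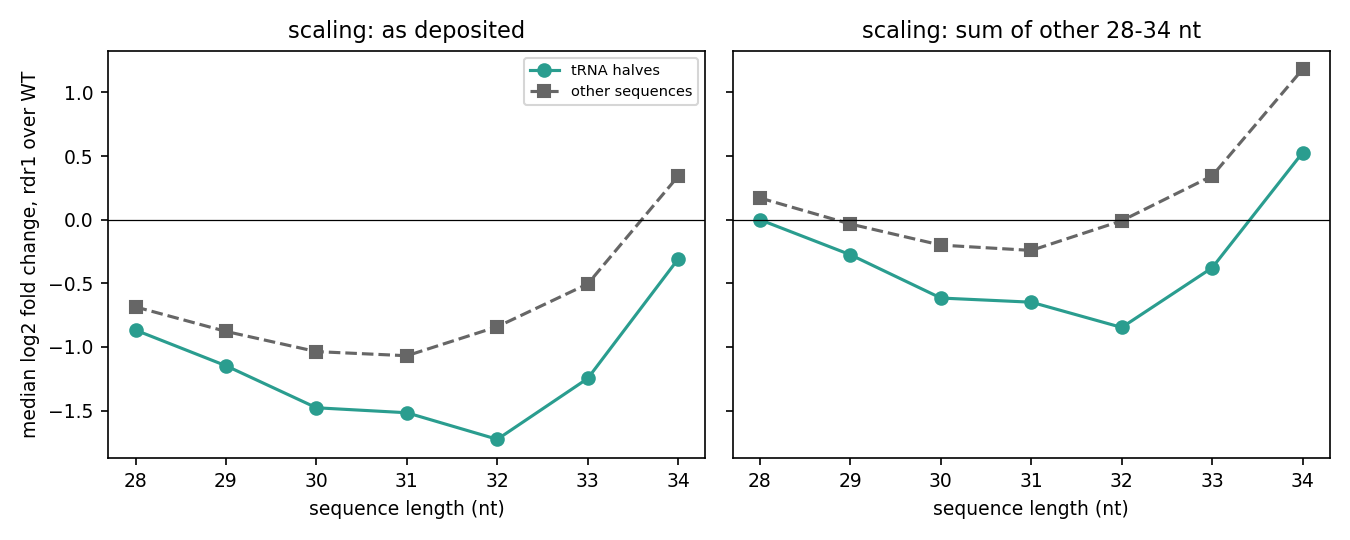
Median log2 change of rdr1 over WT at each length from 28 to 34 nt, for the members (solid line) and for the other listed sequences (dashed line), as deposited (left) and scaled to the sum of the other 28 to 34 nt sequences (right). The members lie below the others at every length in both panels; at 31 nt the medians are -1.52 and -1.07 on the left and -0.65 and -0.24 on the right. Only 2 members have 34 nt.

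As a percentage of the value of the other 28 to 34 nt sequences, the Glu-TTC 5′ class stood at 5.58, 8.57 and 6.46% in WT and 3.42, 3.85 and 5.08% in rdr1. Each WT library was above each rdr1 library, including WT 3 and rdr1 1, and the log2 change in this scaling was -0.74. Pro-AGG/TGG 5′ did not overlap either, with 0.281, 0.269 and 0.347% in WT and 0.211, 0.262 and 0.242% in rdr1. Of the 32 classes, 6 did not overlap with rdr1 lower (18.8%), against 2.16% of all features, and 0 with rdr1 higher, against 4.17%. The scaling moved the median of all features to 0.62, which makes a lower value in rdr1 rarer among them. Classes that rest on sequences listed only through WT values were not counted apart. The Asp-GTC 5′ class overlapped, with 7.699, 10.6 and 7.39% in WT and 6.14, 6.205 and 8.34% in rdr1 and a log2 change of -0.31. Glu-CTC 5′ turned direction in this scaling, to 0.090.

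Internal members formed separate kinds. The 7 that began at base 4 ended at base 31 or 32, before the anticodon, and are 5′ fragments without the first 3 bases. Their sum was 3481, 2756 and 1480 in WT and 592, 1517 and 2323 in rdr1, where WT 3 was below rdr1 2 and rdr1 3. The most abundant was a 28 nt Glu-TTC fragment that ends at the same base as the 31 nt fragment shown above.
Glu-TTC internal, 28 nt: gatgtcgtccagcggttaggatatctgG
It had 1503, 1152 and 697 in WT and 286, 655 and 982 in rdr1, with a log2 change of -0.90 (SE 0.61, limma adjusted p = 0.753). Another 18 internal members began at bases 15 to 22 and ended at bases 43 to 49, across the anticodon, with a mean sum of 339. A single one lay after the anticodon, from base 38 to 65, with a mean value of 114.

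The 3′ fragments were few, with 0.0588 to 0.0957% of the value in each library. They came from Thr-TGT, Ser-TGA and Gly-GCC.
Thr-TGT 3′: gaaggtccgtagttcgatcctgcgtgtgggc
Ser-TGA 3′: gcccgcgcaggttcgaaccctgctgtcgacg
Gly-GCC 3′: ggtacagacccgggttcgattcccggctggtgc
Their mean values over the 3 libraries were 47.1 ± 40.9, 22.9 ± 7.63 and 16.6 ± 9.72 in WT and 16.8 ± 6.23, 6.51 ± 4.58 and 5.13 ± 3.36 in rdr1 (SD). Ser-TGA and Gly-GCC reached the 20.07 needed for listing in WT libraries only, which favours a lower value in rdr1. In the cell the bases CCA are added to the 3′ end of a tRNA, and 88 of the 625 annotated genes end in these bases. Fragments that carry an added CCA do not match a gene and were not analysed here. The length limit restricts the 3′ fragments as well. After the 31 nt Glu-TTC fragment 41 bases of the 72-base gene remain, more than the 34 nt allowed. The listed 3′ fragments begin at bases 41, 52 and 38, past the ends of the 5′ fragments shown above. The low 3′ value thus holds for fragments without CCA and within this limit. It cannot tell whether 3′ parts were rarer than 5′ parts.

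The balance of long to short fragments differed between tRNAs and moved with the library. For Asp-GTC 5′ the long fragments were 95.6, 94.2 and 80.3% of its 17 to 34 nt value in WT and 54.0, 84.3 and 89.0% in rdr1. For Gln-TTG 5′ they were 90.3, 76.1 and 43.8% in WT and 14.8, 52.6 and 68.9% in rdr1. WT 3 and rdr1 1 were the lowest of their genotype in both, as in the length profile of all listed sequences. For Glu-TTC internal the long fragments were 62.2 to 76.8%, and there all WT libraries were above all rdr1 libraries, a difference that was not tested. In the rest of the 12 classes with the highest mean, this share overlapped between the genotypes.

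Some of the members share letters in the D-arm of the tRNA. The motif AGNGGTNA, which covers the D-loop bases that follow the D-stem, was read in 85 members (40.3%), which held 68.9% of the value, and in 21.6% of the first 34 bases of the 625 tRNA genes. Among the 3505 other sequences of 28 to 34 nt 18 held it (0.514%). The overlapping motif GGTTAGGA was in 73 members (34.6%), which held 44.6% of the value, and in 4.96% of the genes. Most members lack each motif, and the Gly-GCC fragments shown above hold neither. On the reverse strand 0 members held either motif. The motifs were chosen from the sequences shown above; these are matches of letters, and members of the same tRNA share them. By first base, G began 124 members with 70.9% of the value, against 81.0% of the genes, and T began 48 members with 25.1% of the value, against 4.32% of the genes; the Glu genes shown above begin with T.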

How the data were processed

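The deposited table holds, for each distinct sequence, a normalised signal in each library, as the file headers name them; TAIR10 is the genome named in the submitters' processing notes. The sources used here do not give the trimming, aligner and normalisation the authors used. Every value was a whole multiple of 8000000 divided by a whole number, taken as the library total (largest deviation 5.093e-05 of a read); what that total counts is not stated. Recovered reads were used for edgeR and DESeq2, as alternatives only. Intervals on them would cover counting error only, since no molecular identifiers are named.

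Sequences were matched exactly to TAIR10.1 and its annotation, and all matched. Values were tested with limma's two-sided test (empirical Bayes, with a mean-variance trend) on log2(value + 1), a scale that understates changes of low values, for a mean of at least 5, with Benjamini-Hochberg adjustment over all features tested. The second fit used sums: nuclear tRNA sequences by anticodon, end and size, and every other sequence divided equally over the genes or places it matched. Sums and shares over members are descriptions. The scripts were tested on simulated data with a spread set in advance. Simulated features were drawn independently, without the length differences between the real libraries, so the counts that follow need not hold for the members. Of 100 sequences changed 4-fold the limma fit recovered 27, and of 100 changed 16-fold it recovered 85. For sums these counts were 56 and 85, and each fit made 1 false call. A sequence or class that was not called may thus still have changed. The members, lists and tests were chosen with earlier results of these data known. The text names the 12 classes with the highest mean, the top sequence of each (3 for the first), and, as none was called, the 5 sequences and classes with the smallest p; other classes or sequences are named to describe position, copies or 3′ ends. Replicate libraries differed by more than sampling noise in each pair (chi-square per degree of freedom 11.6 to 60.8). Alternatives were other pseudocounts, filters, scalings and tools, array weights, each library left out, the replicate number as a block, and other member rules. Matching and sums used Python 3.11.15 with pandas 2.3.3 and numpy 2.4.6, tests used R 4.3.3 with limma 3.58.1, DESeq2 1.42.0 and edgeR 4.0.16, and plots matplotlib 3.10.9.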

Additional observations from a re-analysis of the deposited data

How the results depend on the processing

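With array weights, which weigh libraries by their fit, 31 member sequences passed (29 lower and 2 higher in rdr1) and 1225 of all sequences, against 0 and 39; the cause was not tested. Of the 32 classes, 11 passed without WT 3, and leaving out each library in turn gave 0 to 11 classes and 0 to 0 sequences; of all features 72 of 1836 passed without WT 3 and 37 to 53 without another library, and of all sequences 8 to 56. The log2 ratio of sums ranged from -1.78 to -0.996 without a library, the difference in the share of 28 to 34 nt value from -6.35 to -3.03 and in the share of nuclear tRNA value from -35.4 to -10.4 percentage points. Scaled to other 28 to 34 nt sequences, the ratio of sums was -0.50, and 2 fold changes turned direction, the 28 nt Asp-GTC internal sequence gttgtagtatagtggtaagtattcccgc to 0.010 and Glu-CTC 5′ to 0.090. The 5′ share was 91.6% with no tolerance at the ends and 99.3% with 5 nt. Over all sequences the count of calls was 24 with a pseudocount of 20, 15 with a mean of at least 20, 67 in edgeR, 106 in DESeq2 and 0 in the 28 to 34 nt scaling; over all features it was 87 with no filter. Of 628 alternative values for 35 named fold changes, 612 kept their direction and side of the threshold, 14 passed it and 2 turned.

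The replicate numbers did not pair the libraries: deviations of same-numbered libraries correlated at -0.72, -0.30 and -0.53. With the number as a block, 0 member sequences, 0 classes and 7 of all sequences passed. Depth limits the rare classes, such as Gly-GCC 3′ with 60 reads in all.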

Other observations

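A single listed sequence matched nuclear tRNA genes on the antisense strand only; it was chosen after its values were seen. It has 18 nt and matches 16 Phe-GAA genes, such as AT1G02480, at chr1:515532-515549 on the minus strand of TAIR10.1. In all it matches 18 places in the genome, so an origin outside these genes cannot be told apart.
Antisense Phe-GAA: gaacacgcgaccttcaga
It had 10.2, 24.9 and 9.64 in WT and 0 in each rdr1 library, or 47 reads against 0. With reads pooled by genotype and 3 reads as the floor for rdr1, the fold was 11.3 or more, a figure that covers counting error only. The sequence did not pass the test over all sequences (limma adjusted p = 0.753). Only its WT 2 value reached the 20.07 needed for listing. A lower value in rdr1 was thus favoured by that limit, and the values are a description only. No antisense sequence of 28 to 34 nt was listed.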
